A study of Mus musculus with 2 samples.

Results

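The antiviral interferon-stimulated effectors and RNA sensors are 40 genes whose products detect foreign nucleic acid, degrade or modify viral RNA, or block virus entry and release. They were found by exact gene name among the 34648 names on the array, and all 40 had at least 1 probe. The members were read from 58 probes, and 16 of the genes had more than 1. Each gene is represented by whichever of its probes was brightest, and it counted as measured where the scanner software called that probe well above background on both arrays.

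The data are 2 one-colour Agilent mouse arrays of CMT93 cells, 1 per group. The tested cells were CMT93 cells given lipopolysaccharide (LPS) at 3 µg/mL for 24 h, and the other array held control CMT93 cells. CMT93 is an established mouse carcinoma line, which the labels trace to the rectum of a C57BL/ICRF mouse aged 19 months, so both groups share that tumour genome. LPS is a glycolipid from the outer membrane of Gram-negative bacteria, and neither its source nor a vehicle is stated. With 1 array per group no difference has a replicate check, no test was possible, and fewer cells expressing a gene cannot be told apart from less RNA per cell.

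Interferons made after infection act through cell surface receptors, JAK kinases and a transcription factor complex that holds STAT2 and IRF9. This complex binds the interferon-stimulated response element in the promoters of many interferon-stimulated genes. In macrophages LPS reaches the same genes through Toll-like receptor 4, the adaptor TRIF and interferon beta. Several members, such as RIG-I and the OAS enzymes, are also present at a low level in resting epithelium, so that a cell can notice viral RNA before any interferon arrives.

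Of the 40 members, 30 were measured on both arrays, as were 58.6% of all names on the array and 62.8% of those that are RefSeq symbols. No member passed background in LPS-treated cells alone, where 1.93% of all names and 1.61% of RefSeq symbols did. Ifit3 and Mx2 passed it in control cells alone, as did 2.73% of all names and 2.22% of RefSeq symbols. The remaining 8, which were Ifit1, Ifi44, Oas1g, Oas2, Oas3, Rsad2, Cmpk2 and Epsti1, were above background on neither array, as were 36.7% of all names and 33.3% of RefSeq symbols. This group holds several of the genes that interferon is best known to switch on. Their brightest probes read between 3.76 and 8.21 intensity units on the LPS array and between 3.23 and 8.13 on the control array. The lowest signal called well above background was 16.9 on the LPS array and 15.9 on the control array, so no fold change is given for them.

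**Figure D1:**
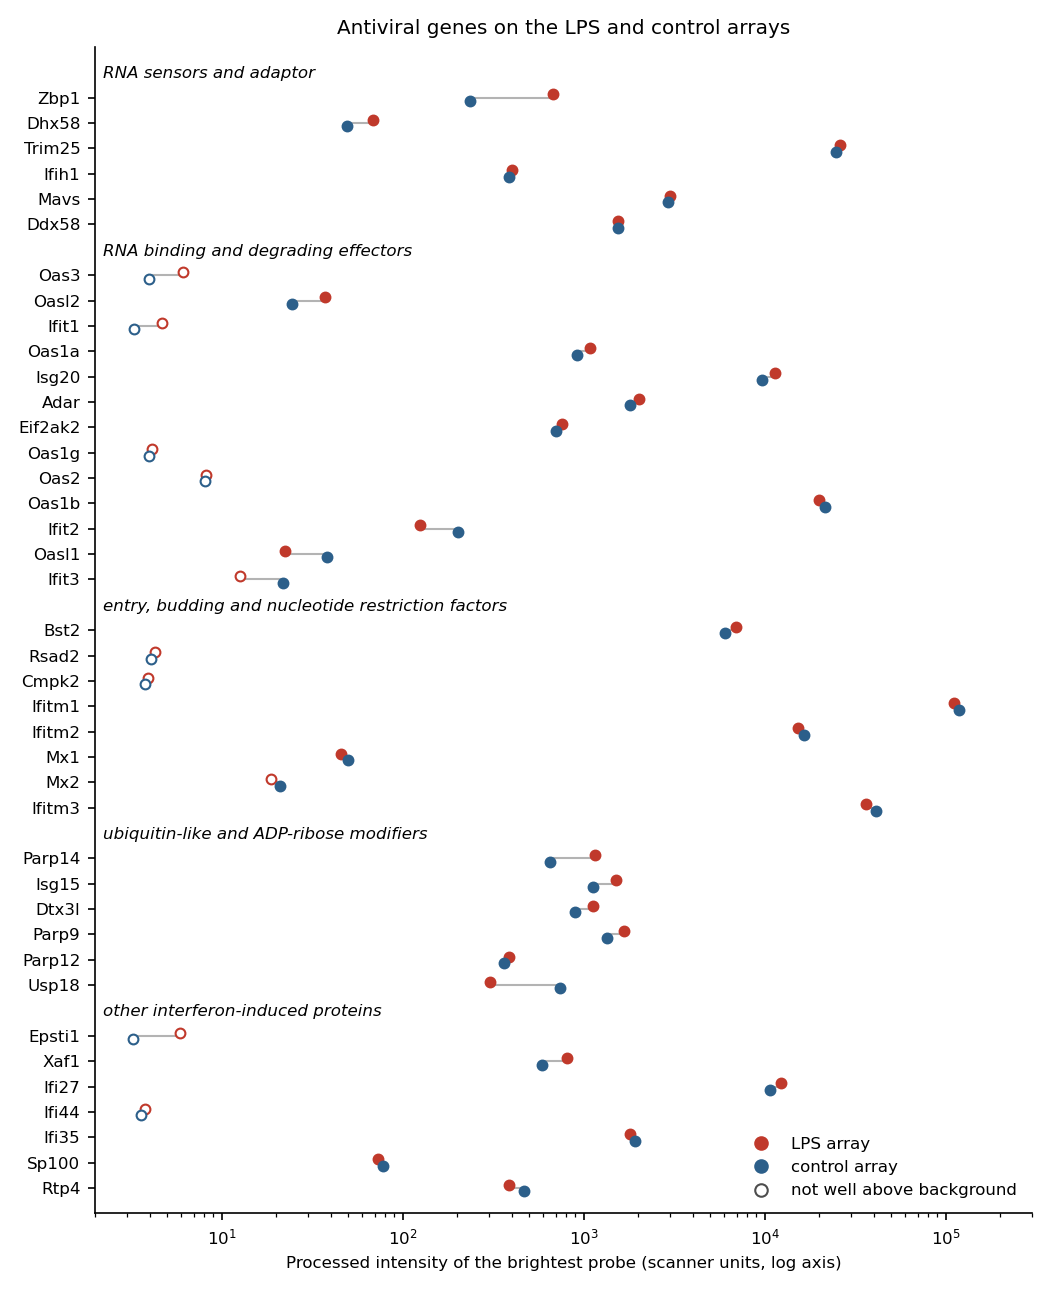
Processed intensity (scanner units, log axis) of the brightest probe of each of the 40 members on the LPS array (red) and the control array (blue), grouped by role; open circles were not well above background. Most pairs of points lie close together, Zbp1 stands to the right on the LPS array and Usp18 to the left, and 8 members are open on both arrays. Positions of different genes are not comparable as levels, since each probe binds its target with its own strength.

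The interferon response word was found near the starts of some members that were measured and some that were not. Windows reaching from 250 bases before to 50 bases after the start of each gene were available in RefSeq (GRCm38.p6) for 29 members. They were searched on both strands for GAAA, then 2 bases of any kind, then GAAA, which is a short form of the interferon-stimulated response element. On the opposite strand the word reads TTTC, 2 bases of any kind, TTTC. It was present in 13 of 29 members (44.8%) and in 1079 of 27025 genes of the table (3.99%). Of 21 such members measured on both arrays 8 held it, and of 7 members above background on neither array 4 held it. A second word, TTCNNNGAA, the form bound by STAT dimers, was present in 8 of 29 members (27.6%) and in 9.55% of all genes. All 8 members with this second word were measured on both arrays, as were 21 of the 29 members with a window. Over all genes on the array with a window, it was in 8.55% of those measured on both arrays and in 10.4% of those above background on neither. Among other interferon-stimulated genes with a window, 22 of 41 (53.7%) held the first word and 9 of 41 the second. A match is a run of letters and not a shown binding site. The members without a window were Dhx58, Ifi27, Mx1, Mx2, Oas1b, Oas2, Parp9, Parp14, Rtp4, Usp18 and Zbp1.

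The stretches below are 30 bases around the match nearest to the start of each gene, on the strand of the gene, 5′ to 3′, with the word in capitals. They are shown because the same word lies near the starts of both measured and unmeasured genes. The first 8 genes were measured on both arrays, Ifit3 on the control array only, and the last 4 on neither.
Bst2 (chr8:71537580-71537609, minus): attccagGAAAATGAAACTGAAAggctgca
Ddx58 (chr4:40239804-40239833, minus): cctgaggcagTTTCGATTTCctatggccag
Eif2ak2 (chr17:78882535-78882564, minus): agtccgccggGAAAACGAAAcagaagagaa
Ifih1 (chr2:62646206-62646235, minus): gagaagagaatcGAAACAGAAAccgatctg
Ifitm2 (chr7:140955988-140956017, minus): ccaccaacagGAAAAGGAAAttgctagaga
Ifitm3 (chr7:141010723-141010752, minus): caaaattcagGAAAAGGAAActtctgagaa
Isg15 (chr4:156200871-156200900, minus): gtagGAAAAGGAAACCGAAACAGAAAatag
Oas1a (chr5:120907523-120907552, minus): ttctcggGAAATGGAAACTGAAAatctact
Ifit3 (chr19:34583397-34583426, plus): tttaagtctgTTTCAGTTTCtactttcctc
Ifit1 (chr19:34640794-34640823, plus): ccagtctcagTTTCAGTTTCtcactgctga
Oas1g (chr5:120887609-120887638, minus): ttctcggGAAATGGAAACTGAAAatctact
Oas3 (chr5:120777715-120777744, minus): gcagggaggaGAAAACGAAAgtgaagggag
Rsad2 (chr12:26456553-26456582, minus): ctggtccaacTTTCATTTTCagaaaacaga
Oas1a, which was measured, and its neighbour Oas1g, which was not, have the same 30 bases here.

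The upstream windows of 2 members are given in full for comparison. Isg15, measured on both arrays, has 3 overlapping words, and Ifit1, above background on neither array, has 2 separate ones. Each window is the 250 bases before the start, with the words in capitals.
Isg15 (chr4:156200819-156201068, minus, GRCm38.p6): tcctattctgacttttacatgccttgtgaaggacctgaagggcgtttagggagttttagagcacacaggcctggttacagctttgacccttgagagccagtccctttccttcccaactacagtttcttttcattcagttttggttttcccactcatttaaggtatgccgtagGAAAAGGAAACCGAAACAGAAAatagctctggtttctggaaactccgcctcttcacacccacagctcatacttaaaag
Ifit1 (chr19:34640639-34640888, plus, GRCm38.p6): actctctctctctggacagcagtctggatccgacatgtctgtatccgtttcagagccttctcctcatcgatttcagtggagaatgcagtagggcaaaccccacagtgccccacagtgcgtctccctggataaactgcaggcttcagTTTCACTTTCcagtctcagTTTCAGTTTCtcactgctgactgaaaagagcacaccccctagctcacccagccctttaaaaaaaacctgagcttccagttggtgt

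**Figure D2:**
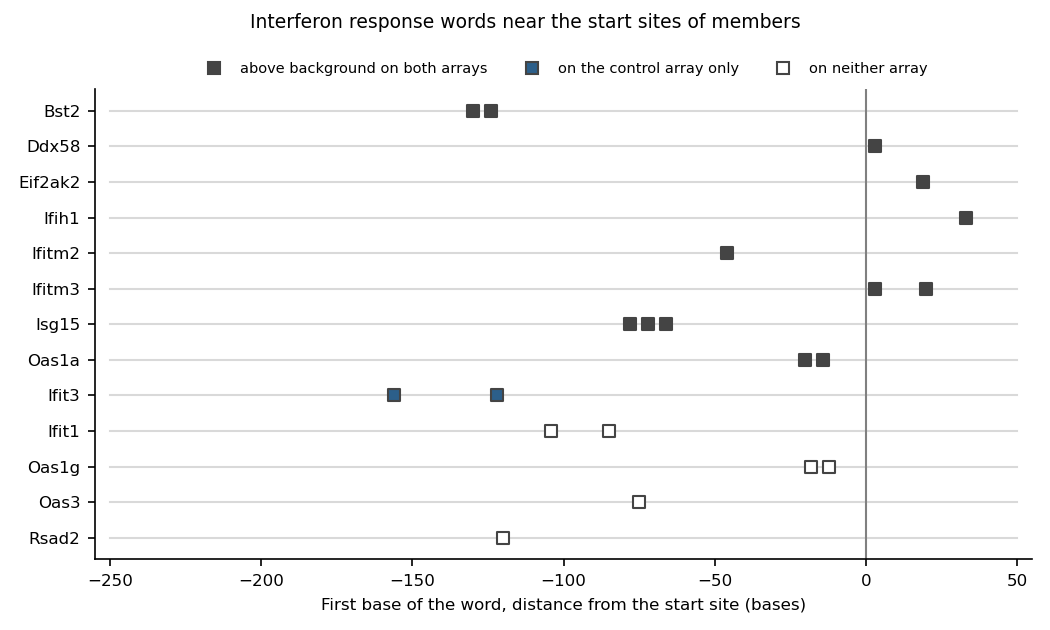
Distance in bases from the start site to the first base of each interferon response word, on either strand, in the 13 members whose window held one; each square is 1 match and its fill gives the arrays on which the gene was above background. Words lie before the start in 9 of the 13 genes and after it in Ddx58, Eif2ak2, Ifih1 and Ifitm3.

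Among the 30 measured members, 1 exceeded 2-fold upwards in LPS-treated cells, 1 exceeded it downwards and 28 did neither. Over all 20320 measured genes, 1.46% were past 2-fold upwards and 0.571% downwards, and for RefSeq symbols the shares were 1.59% and 0.562%. A count of 1 member in each direction among 30 is too small to be called either like or unlike those shares. At 1.5-fold, 3 members were higher, as were 3.58% of all measured genes and 3.88% of RefSeq symbols. At the same size 3 members were lower, as were 2.68% of all measured genes and 2.69% of RefSeq symbols. The member median was 0.13 on the log2 scale, against -0.02 for all measured genes. The member differences had an SD of 0.50 and all measured genes one of 0.38. More members were above 0 than below it, with 19 of 30 (63.3%), against 44.5% of all measured genes and 46.1% of RefSeq symbols. LPS-treated cells were thus slightly higher for a majority of these genes and more than 2-fold different for Zbp1 and Usp18 alone.

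The error after each ± below is the SD between repeated spots on the slide, taken from the 25 repeatedly printed probes nearest in brightness among 238 such probes. It ranged with brightness, with a median of 0.03 among the brightest of those probes and 0.13 among the dimmest, where single probes reached 0.37. Against this error alone, 16 members were higher by at least 2 SD, 7 were lower by at least 2 SD and 7 were within it. The same count was not made over all measured genes, whose differences had an SD of 0.38. These counts therefore do not set the members apart from other genes. Spot error leaves out the spread between cultures, which 1 array per group cannot show. Readings given below are intensities before scaling, and differences are after it.

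**Figure D3:**
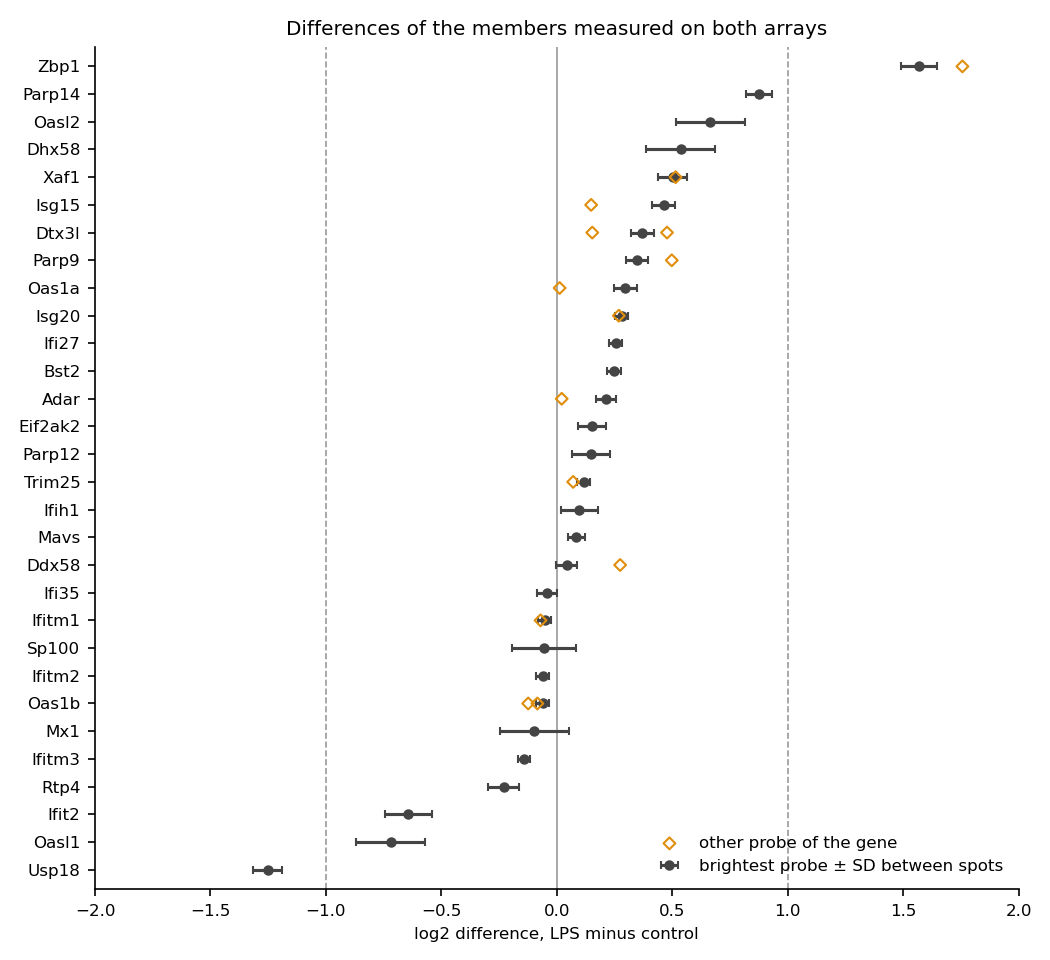
Difference in log2 processed intensity, LPS minus control after scaling, for the 30 members measured on both arrays; circles are the brightest probe with the SD between spots and diamonds are other measured probes of the same gene. Dashed lines mark 2-fold. Zbp1 lies past the upper line on both of its probes, Usp18 lies past the lower line on its single probe, and the other 28 lie between.

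RNA and nucleic acid sensors were all measured, and all 6 sensors and partners were above 0, Ddx58 by less than the spot error. Zbp1, which encodes a sensor of Z-form nucleic acid that can trigger necroptosis, read 679 on the LPS array and 236 on the control array, a log2 difference of 1.57 ± 0.08 or 2.96-fold. This was above 99.4% of all measured genes. Its second probe lies elsewhere in the same gene region and read 103 on the LPS array and 31.6 on the control array, a difference of 1.76. Both Zbp1 probes were therefore past 2-fold in the same direction.

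The probe sequences behind Zbp1 and Usp18, the members past 2-fold, are shown with those of Oasl1 and Oasl2, a related pair that went opposite ways. Each is bases 1 to 30 of a probe of 60 bases as deposited, in lower case throughout, with the mm9 position of the whole probe.
Zbp1, brightest (chr2:173039307-173039366): caagctggtcttgaacccacagagatcttc
Zbp1, second (chr2:173032258-173032317): acagatgtgacatgaaagtacatgtaacac
Usp18 (chr6:121220874-121220933): ccaagctggttggagcctccagccttcaaa
Oasl1 (chr5:115387861-115387920): aaggtaggaggggatcaagttcctttcaaa
Oasl2 (chr5:115362168-115362227): tgctctagaatggtaccaatccagtatcaa
The brightest Zbp1 probe shared 41 of 50 aligned bases with a probe named for Sgsm3, which was itself measured at a difference of 0.02. The second Zbp1 probe, with the larger difference, shared at most 32 bases with any probe of another name.

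Dhx58, which encodes LGP2, a helicase that tunes the other sensors, read 69.0 on the LPS array and 49.1 on the control array, a difference of 0.54 ± 0.15 that was 0.26 with normexp background correction. Ddx58 encodes RIG-I, the sensor of viral RNA with a triphosphate end, and read 1544 on the LPS array and 1547 on the control array. Its difference of 0.04 ± 0.05 was within the spot error and positive only after scaling, while a dimmer second probe gave 0.27. Ifih1 encodes MDA5, the sensor of long double-stranded RNA. It read 403 on the LPS array and 388 on the control array (0.10 ± 0.08), and its other probe was above background on neither array.

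Mavs encodes the mitochondrial adaptor through which RIG-I and MDA5 signal, and it read 2997 on the LPS array and 2918 on the control array (0.08 ± 0.04). Trim25, a ubiquitin ligase gene, read 26098 on the LPS array and 24837 on the control array (0.12 ± 0.03). The brightest Trim25 probe shared at least 40 bases with 19 probes of other names, all measured, whose differences lay between 0.03 and 0.18 with a median of 0.12. Signal from the transcripts behind those probes was not tested, and the second Trim25 probe, which shared at most 33 bases with any of them, stood at 0.07.

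The effectors that bind or cut RNA were mixed. Of 13 such members 8 were measured, 5 above 0 and 3 below. The Ifit genes encode proteins that hold viral RNA by its 5′ end, and the 3 members lie within 73.6 kb on chromosome 19 by their probes. Ifit2 read 126 on the LPS array and 202 on the control array, a difference of -0.64 ± 0.10 or 1.56-fold lower. Ifit3 read 12.7 on the LPS array and 21.9 on the control array, above background in the control alone. Its bound was 1.25-fold lower, or 1.08-fold with normexp. Ifit1 read 4.66 on the LPS array and 3.30 on the control array and was above background on neither. No Ifit gene was thus higher on the LPS array where a direction could be read.

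The OAS enzymes bind double-stranded RNA and make short 2′-5′ linked oligoadenylates as a second messenger. Oas1a read 1090 on the LPS array and 916 on the control array (0.30 ± 0.05), but its other probe read 149 on the LPS array and 152 on the control array (0.01). The brighter Oas1a probe shared 41 of 58 bases with a probe of Oas1f, which stood at 0.43. Oas1b, a gene known for flavivirus resistance that is truncated in many laboratory strains, read 19992 on the LPS array and 21526 on the control array (-0.06 ± 0.03). Its probe shared 52 of 58 bases with a probe of another name and at least 40 with 7 in all. A further Oas1b probe, with at most 34 shared bases, read 260 on the LPS array and 292 on the control array, a difference of -0.12. Oas1g, Oas2 and Oas3 were above background on neither array, so of the 5 Oas genes within 166 kb on chromosome 5 only 2 were measured.

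Oasl1 and Oasl2 encode OAS-like proteins, and their probes lie 25.7 kb apart on chromosome 5. Oasl2 read 37.5 on the LPS array and 24.4 on the control array, a difference of 0.66 ± 0.15 or 1.59-fold. Oasl1, which in mice restrains translation of the interferon regulator Irf7, read 22.5 on the LPS array and 38.1 on the control array, a difference of -0.72 ± 0.15 or 1.65-fold lower. These neighbours went opposite ways. Both probes were dim, and with normexp the differences shrank to 0.25 for Oasl2 and -0.22 for Oasl1.

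Isg20, which encodes a 3′ to 5′ exonuclease for RNA, read 11471 on the LPS array and 9734 on the control array (0.28 ± 0.03), and its second probe gave 0.27. Adar, the gene of the enzyme that edits adenosine to inosine in double-stranded RNA, read 2017 on the LPS array and 1796 on the control array (0.21 ± 0.04), with 0.02 on its second probe. Eif2ak2 encodes PKR, which halts translation when it binds double-stranded RNA, and read 758 on the LPS array and 704 on the control array (0.15 ± 0.06). All of these differences were well under 1.5-fold.

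Among factors that block virus entry, budding or nucleotide supply, 5 of 8 were measured and 4 of the 5 were below 0. The IFITM proteins sit in membranes and hinder virus fusion, and their genes lie within 54.7 kb on chromosome 7 by their probes. Ifitm3 was printed 10 times. Its spots read between 33889 and 37598 on the LPS array and between 40234 and 42163 on the control array before scaling, with no overlap. These are spots of 1 sample per group, and other repeatedly printed probes were not checked for such overlap. Its difference was -0.14, and the SD over the 10 spots was 0.04. Ifitm1 read 111117 on the LPS array and 118942 on the control array (-0.05 ± 0.03), and Ifitm2 read 15333 on the LPS array and 16502 on the control array (-0.06 ± 0.03). The Ifitm1 probes overlap by all but 1 base and are not separate measurements. The Ifitm2 probe shared 57 of 60 bases with an unnamed probe that stood at 0.05.

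Bst2, the gene of tetherin, which tethers budding virus to the cell surface, was the exception in this group. It read 6973 on the LPS array and 6061 on the control array, a difference of 0.25 ± 0.03. The Mx genes encode dynamin-like GTPases and are defective in many laboratory mouse strains. Mx1 read 45.5 on the LPS array and 50.2 on the control array (-0.10 ± 0.15), within the spot error. Mx2 read 18.7 on the LPS array and 21.1 on the control array, above background in the control alone. Its bound of 1.09-fold lower was 1.02-fold with normexp and makes no allowance for spot error. The log2 difference behind it, -0.13, was smaller in size than the spot error of Mx1. Rsad2, the gene of viperin, and its neighbour Cmpk2, which lie 35.1 kb apart on chromosome 12 and act on nucleotides, were both above background on neither array.

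Genes of ubiquitin-like and ADP-ribose modification held the widest range. All 6 were measured, with 5 above 0 and Usp18 far below. Usp18 encodes the protease that removes ISG15 from proteins and that also shuts down the type I interferon receptor. It read 302 on the LPS array and 743 on the control array, a difference of -1.25 ± 0.06 or 2.38-fold lower. Only 0.344% of measured genes lay below it, and it had 1 probe, which shared at most 33 bases with any probe of another name.

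Isg15, the ubiquitin-like modifier that Usp18 removes, read 1513 on the LPS array and 1133 on the control array, a difference of 0.46 ± 0.05. Its second probe read 83.0 on the LPS array and 77.3 on the control array (0.15). Substrate tag and protease thus differed in opposite directions between the arrays. Parp14, which encodes an enzyme that attaches single ADP-ribose units, read 1158 on the LPS array and 652 on the control array, a difference of 0.87 ± 0.06 or 1.83-fold. It was the member nearest to 2-fold from below.

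Parp14 lies with Dtx3l and Parp9 within 140 kb on chromosome 16. Parp9 and Dtx3l encode partners of 1 complex that joins ADP-ribosylation to ubiquitination. Dtx3l read 1124 on the LPS array and 897 on the control array (0.37 ± 0.05), with 0.15 and 0.48 on its dimmer probes. Parp9 read 1663 on the LPS array and 1348 on the control array (0.35 ± 0.05), with 0.50 on its other probe. All 6 probes of these 3 neighbours were above 0. Parp12, a related gene on chromosome 6, read 389 on the LPS array and 362 on the control array (0.15 ± 0.08).

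Other interferon-induced members differed little, with 5 of 7 measured and all under 1.5-fold. Xaf1, whose product counters the apoptosis inhibitor XIAP, read 813 on the LPS array and 593 on the control array (0.50 ± 0.06), and its second probe gave 0.51. Ifi27 read 12317 on the LPS array and 10653 on the control array (0.25 ± 0.03). Ifi35 (-0.04 ± 0.04) and the nuclear body gene Sp100 (-0.06 ± 0.14) were within the spot error, and their sign changed under another scaling. Rtp4, which encodes a chaperone of cell surface receptors, read 386 on the LPS array and 467 on the control array (-0.23 ± 0.07).

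Close matches between probes bear on 7 of the 30 measured members. Member probes were compared only with other probes on the array and not with whole transcripts, so binding to other RNA was not tested. The brightest probes of Ifih1, Ifitm1, Ifitm2, Oas1a, Oas1b, Trim25 and Zbp1 shared at least 40 bases with a probe of another gene name. The other 23 shared at most 36. When the brightest probe without such a match stood in, 27 members were measured, 1 exceeded 2-fold in each direction and the median was 0.15.

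**Figure D4:**
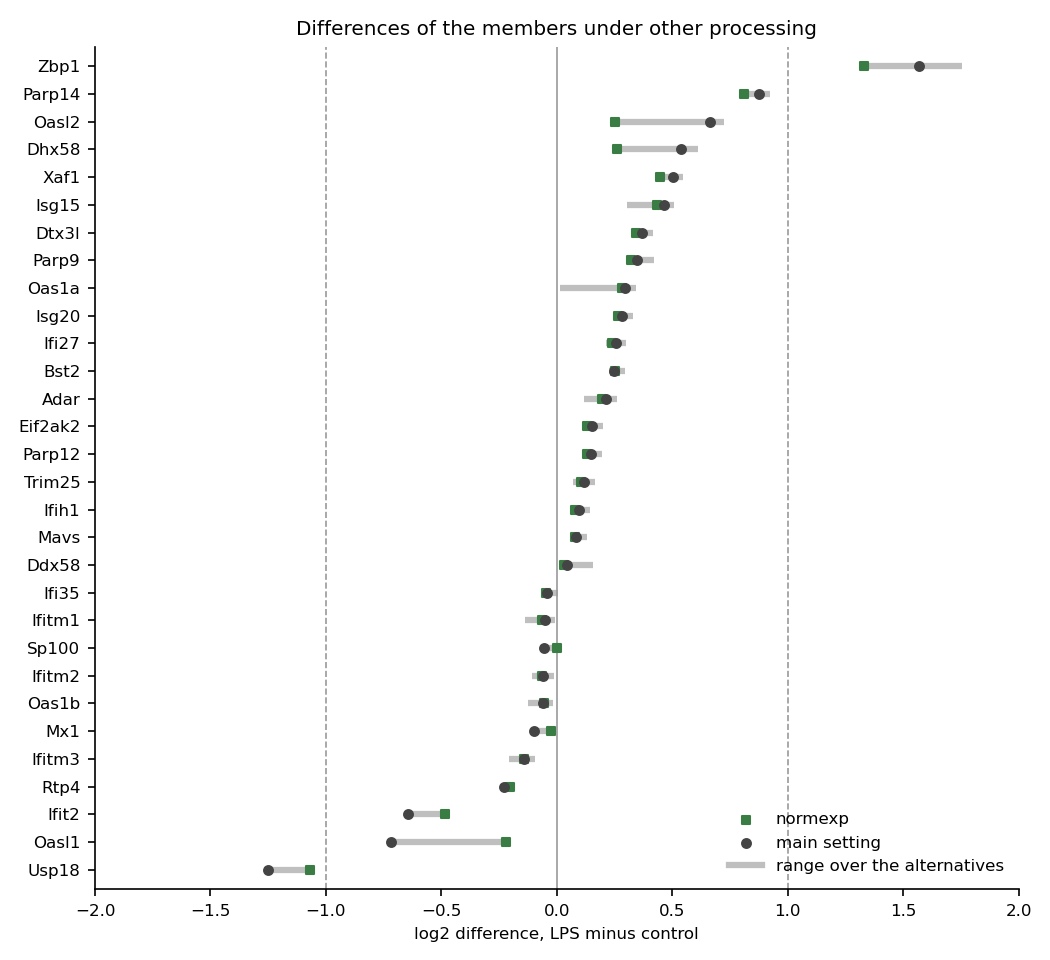
Log2 difference (LPS minus control) of the 30 measured members in the main setting (circles), with normexp (squares) and over all alternatives (grey bars); dashed lines mark 2-fold. Zbp1 and Usp18 stay past the lines in every setting, and normexp moves the dim Oasl1 and Oasl2 further than any other member.

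The pathway that feeds these genes was examined with 6 lists. For comparison, 1.46% of all measured genes were past 2-fold upwards and 0.571% downwards. Ifnb1, the first interferon gene that LPS induces in macrophages, read 4.03 on the LPS array and 3.84 on the control array and was above background on neither. Of 10 interferon genes on the array 7 were measured, none reached 1.5-fold and the median was -0.18, with Ifna5 highest at 0.17 and Ifne lowest at -0.25. Under other processing the median of these interferon genes ran from -0.20 to -0.06, the latter with normexp. Their probes were dim, between 18.4 and 112 on the LPS array and between 22.6 and 131 on the control array. Close matches were searched for member probes only, so probes of the Ifna genes were not checked against one another.

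Receptors and transducers had a median of 0.24 over 10 measured genes, none of them past 2-fold. Under other processing this median ran from 0.09, with a looser or no background filter, to 0.29 with spike-in scaling. Ifngr2, a chain of the interferon gamma receptor, was highest at 0.84, and Ifnar2, the signalling chain of the type I receptor on which Usp18 acts, stood at 0.82. Tyk2 was lowest at -0.16. Stat2 stood at 0.36 and Irf9 at -0.07.

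Interferon regulatory factors had a median of 0.17 over 5 measured genes. Irf7 was highest at 0.83 on a dim probe that read 32.9 on the LPS array and 19.0 on the control array. Among 17 measured adaptors, kinases and other genes of nucleic acid sensing, 2 exceeded 2-fold upwards, none did so downwards and the median was 0.17. The upward share was larger than the 1.46% of all measured genes, in a list chosen with earlier results of these data known. Ikbke, the kinase gene beside Tbk1 in this pathway, read 275 on the LPS array and 94.3 on the control array, a difference of 1.59 ± 0.10. Azi2 was lowest in that list at -0.28.

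Feedback inhibitors of JAK and STAT signalling had a median of 0.07 over 9 genes, with Cish highest at 0.68 and Socs1 lowest at -0.68. Other interferon-stimulated genes outside the member list had a median of 0.05 over 34 measured, with none of these past 2-fold upwards and 1, Gbp2 at -2.50, past it downwards. A further 3 genes of this list have only a bound. Psmb9, an immunoproteasome gene, passed background in LPS-treated cells alone and was at least 2.18-fold higher, and the chemokine gene Cxcl10 did likewise and was at least 1.68-fold higher. Ifi44l passed it in control cells alone and was at least 1.49-fold lower. Ifi47 was the highest of the 34 at 0.70.

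**Figure D5:**
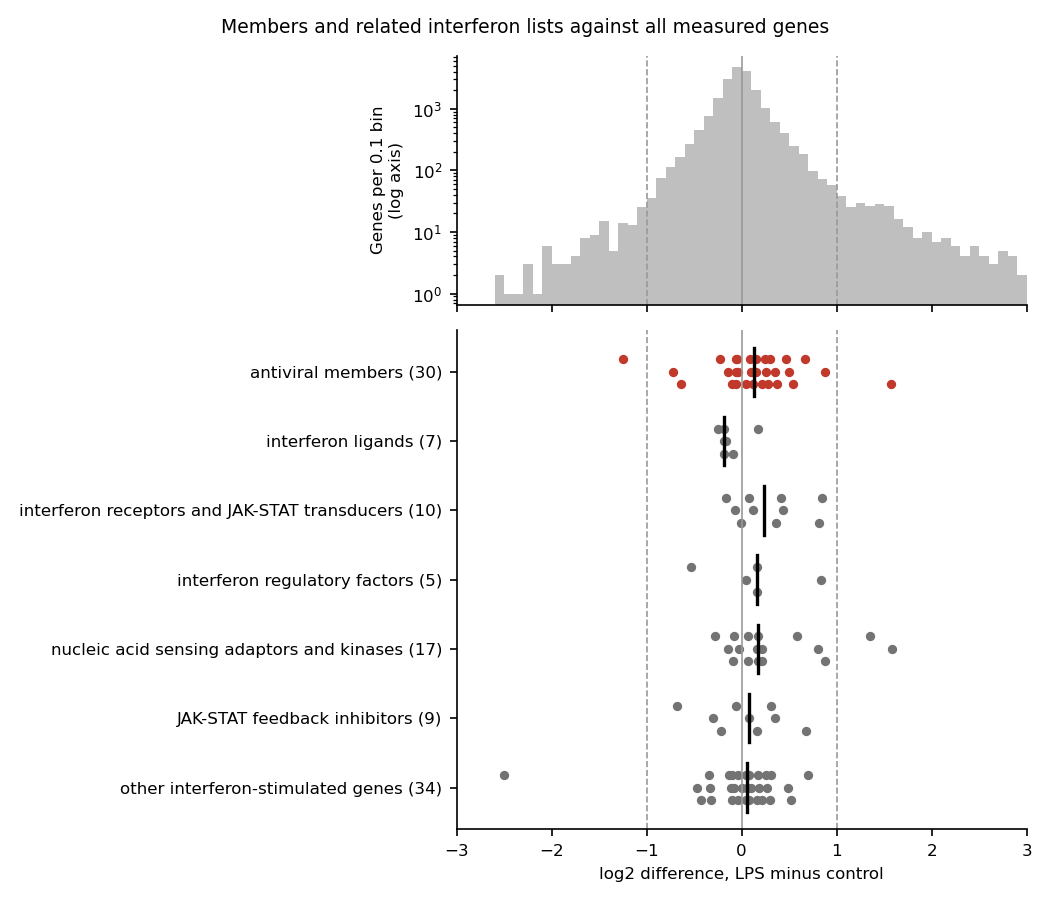
Top, number of measured genes per bin of the log2 difference (LPS minus control, log axis), with genes beyond 3 in either direction not drawn. Below, each point is a measured gene of the members (red) or of a related list (grey), with the number measured in brackets and the median as a black line. The member median stood at 0.13, and most genes of every list lay between the dashed 2-fold lines.

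The epithelial identity of the line was measured by 8 markers, all above background on both arrays, with a summed intensity of 668011 on the LPS array and 800459 on the control array. All 8 were below 0, Lgals4 lowest at -1.45, while Cdh1 at -0.01 ± 0.03 was within the spot error. Over all measured genes 44.5% were above 0. Krt18 alone read 311100 on the LPS array and 353848 on the control array, so it weighs heavily in these unscaled sums. Of 8 leukocyte markers on the array 5 were measured, with a summed intensity of 11919 on the LPS array and 11479 on the control array. The macrophage gene Emr1 passed background in LPS-treated cells alone, and Ptprc, the defining leukocyte gene, in control cells alone. Siglech, a gene of plasmacytoid dendritic cells, read 88264 on the LPS array and 90077 on the control array on 1 probe, while its other probes were above background on at most 1 array. Brightness of 1 probe therefore did not settle that a gene was expressed, and the part of other cell types in the member values was not tested.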

How the data were processed

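Each array holds 1 sample, assigned to its group by the sample title. Per the file headers, the authors deposited processed intensity per spot, background-subtracted and detrended by Feature Extraction 10.10.1.1, with probes placed on mm9. Control spots were dropped, as were 223 that carried an outlier flag. The log2 of the processed intensity was scaled by subtracting the 75th percentile of each array (631 on the LPS array and 651 on the control array). Spots of a probe were averaged. Of 59305 non-control spots, 54.7% on the LPS array and 55.8% on the control array were well above background, none was saturated, and precision is limited by having 2 arrays. A gene above background on 1 array has a bound, taken against the array's lowest signal well above background, or the dim probe's reading where that is greater. Genes were described by size with no test. All 40 members were named, and from each pathway list the highest, the lowest and any gene past 2-fold (some of these are not reported here), while Ifnb1, Ifnar2, Stat2, Irf9, Psmb9, Cxcl10, Ifi44l and the marker genes were picked with their values in view. The members and lists were chosen with earlier results of these data known. Alternatives were normexp (offset 50), floored signal, quantile, loess (span 0.7), median, detected-probe and spike-in scaling, the median over probes, looser or no background filter, and probes without close matches. Python 3.11.15, numpy 2.4.6, pandas 2.3.3, matplotlib 3.10.9, R 4.3.3 and limma 3.58.1 were used. The code behind the size rule was checked on simulated shifts with the same noise at every brightness. That check does not show how the rule performs on these data.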

Additional observations from a re-analysis of the deposited data

How the results depend on the processing

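The probes without close matches were chosen after seeing the data. Each of the 11 alternatives kept 1 member at least 2-fold higher and 1 at least 2-fold lower, and these were Zbp1 (between 1.33 and 1.76) and Usp18 (between -1.27 and -1.07). At 1.5-fold the counts were 3 and 3. The member median ran from 0.11 to 0.18, the highest with spike-in scaling, which moved the median of all genes by 0.05. Over the alternatives 28 of 30 members kept their sign. Ifi35 turned to 0.0036 with spike-in scaling and Sp100 to 0.014 with loess. Of 327 member values under the alternatives 36 moved by more than the spot SD. Measured members numbered 34 with the looser flag and 40 with no filter, by construction. Among other interferon-stimulated genes, of which 47 were on the array, 3 were at least 2-fold higher and 2 lower under 2 alternatives. These were the looser flag and no filter. Over all genes the shares higher and lower also rose, to 3.03% and 2.25% of 24545 with the looser flag. With no filter they were 3.92% and 3.39% of 34648. All genes at least 2-fold higher and lower numbered 296 and 116, against 170 and 37 with normexp, 744 and 552 with the looser flag and 1358 and 1174 with no filter. Normexp brought Oasl1 to -0.22, Oasl2 to 0.25 and Dhx58 to 0.26. The cause of these shifts was not tested. Signal near background limits the values of such dim probes. No paired analysis was possible because each group has 1 array.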
